A study of Mus musculus with 18 samples.

Results

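Transcripts of the natriuretic peptide system were followed in the left ventricle through 6 genes chosen by name: Nppa, Nppb, Corin, Npr1, Npr2 and Npr3. The deposited tables held 49315 genes, and all 6 were found in them by Ensembl identifier through GENCODE M21. All 6 were also among the 15778 genes that passed the filter on low counts. The study sequenced RNA from the mid wall of the left ventricle of male mice on the 129SVE background, labelled either wild type (WT) or MLP knockout (KO), at 3, 6 and 10 weeks of age. MLP is the muscle LIM protein encoded by Csrp3, and by its title the series concerns the ventricle during progressive dilated cardiomyopathy with heart failure. Each of the 6 groups held 3 libraries, 18 in all. The labels did not say how the knockout allele was made, which cells or promoter it concerns, or whether a library came from 1 animal or from pooled animals, so the p-values measure only the spread between these libraries.

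Cardiac muscle secretes atrial natriuretic peptide (ANP) from the Nppa precursor and B-type natriuretic peptide (BNP) from the Nppb precursor, chiefly when its wall is stretched. Corin is a membrane protease that cuts the ANP precursor to its active form. NPR-A, encoded by Npr1, binds both peptides and makes cyclic GMP, NPR-B (Npr2) does the same for C-type natriuretic peptide, and NPR-C (Npr3) takes up and clears all of them. In the healthy adult heart Nppa is mainly an atrial transcript, and its return in the ventricle is a long-used sign of load and failure.

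Library totals ran from 14980968 to 23001047 counts, and mitochondrially encoded genes took 11.0% to 16.8% of them in WT and 7.50% to 10.9% in KO. Summed markers of the ventricular muscle list, Myh6 the largest, were high in all 18 libraries, at 71275 to 117082 CPM (library-scaled counts). Of this list, Myl2 held 4485 to 8539 CPM. Irx4 held 19.3 to 81.0 CPM, lowest in KO replicate 1 at 10 weeks. Csrp3 itself was not lower in the libraries labelled KO. Its level averaged 1022 CPM in WT and 1783 CPM in KO at 3 weeks, 1369 and 2032 CPM at 6 weeks, and 1048 and 2565 CPM at 10 weeks, where the increase was called (log2 fold change 1.29, SE 0.30, adjusted p = 0.0041). A count over the whole gene does not show whether part of it was deleted, so Csrp3 gave no check of the labels, and WT and KO below mean the libraries so labelled. In 3 KO libraries the atrial light chain transcript Myl4 stood at more than 10 times the median of its group: replicate 3 at 3 weeks held 118 CPM, replicate 3 at 6 weeks 436 CPM, and replicate 1 at 10 weeks 1145 CPM. The other 15 libraries held 1.71 to 23.2 CPM of it, and the results below were therefore repeated without those 3 libraries.

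Genes were called at an adjusted p under 0.05 in an edgeR quasi-likelihood fit across all 15778 genes. Between KO and WT, 2 of the 6 genes were called at 3 weeks, where 15.3% of all genes tested were called, 8.65% higher and 6.68% lower. At 6 weeks 2 of 6 were called against 23.8% of all genes (11.0% higher and 12.8% lower), and at 10 weeks 3 of 6 against 29.3% (14.6% higher and 14.7% lower). Every one of these calls was higher in KO, and they fell on Nppa, Nppb and Npr3. Corin, Npr1 and Npr2 were not called between the genotypes at any age. The median log2 fold change of the 6 genes was 0.30, 0.53 and 1.19 at 3, 6 and 10 weeks, beside 0.00, 0.00 and -0.03 over all genes.

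**Figure D1:**
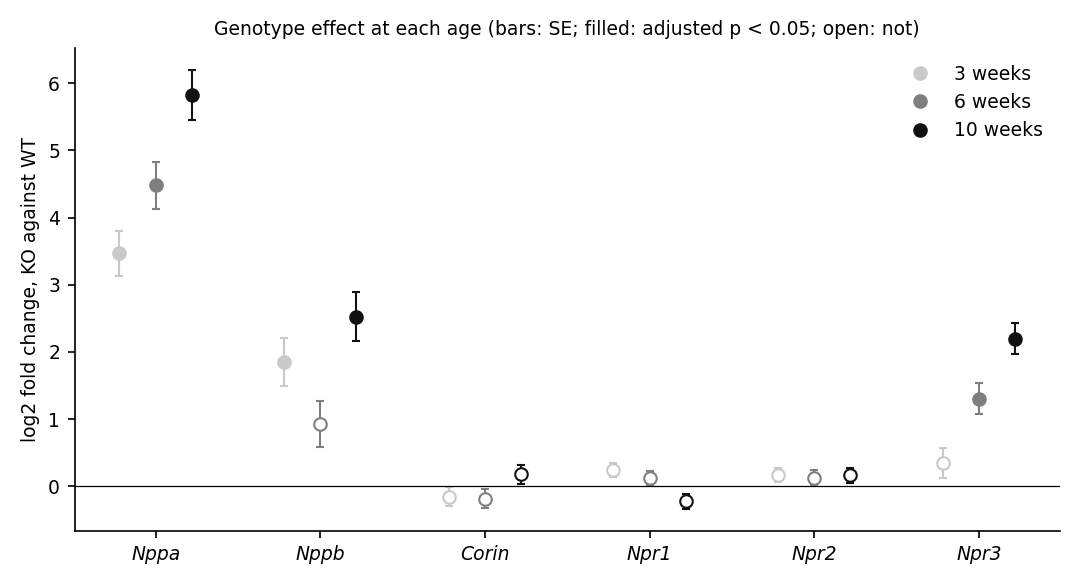
The log2 fold change of KO against WT (y axis) is plotted for each of the 6 genes (x axis) at 3, 6 and 10 weeks, with SE bars, filled where the adjusted p was under 0.05 and open where it was not. Nppa lies between 3.47 and 5.83 and Npr3 between 0.35 and 2.20, while every point of Corin, Npr1 and Npr2 lies within 0.25 of 0.

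Nppa (ENSMUSG00000041616; GRCm38, chromosome 4, 148000722 to 148002079, plus strand) encodes the ANP precursor. At 3 weeks its level was 218, 192 and 335 CPM in WT replicates 1 to 3 and 1984, 4091 and 2184 CPM in KO. At 6 weeks it was 465, 418 and 467 CPM in WT and 13368, 7380 and 9359 CPM in KO. At 10 weeks it was 235, 301 and 192 CPM in WT and 10308, 17428 and 13596 CPM in KO. The lowest KO library of any age was thus above the highest WT library of any age. KO exceeded WT by a log2 fold change of 3.47 at 3 weeks (SE 0.34, adjusted p = 8.36e-06), 4.48 at 6 weeks (SE 0.35, adjusted p = 4.18e-07) and 5.83 at 10 weeks (SE 0.38, adjusted p = 3.82e-08). In linear terms these were 11.1-fold, 22.3-fold and 56.7-fold. All 3 calls held in every one of the 16 alternatives run at each age, and without the 3 libraries rich in Myl4 the differences were 3.60, 4.53 and 6.02.

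By transcript abundance Nppa became one of the most abundant transcripts of the KO ventricle. By RPKM (CPM per kilobase of exon), it ranked 91 to 221 among the genes tested in the WT libraries. In KO it ranked 10 to 16 at 3 weeks, 3 to 6 at 6 weeks and 2 to 5 at 10 weeks. Its share of all counts in a library was 0.0185% to 0.0458% in WT and 0.926% to 1.48% in the KO libraries of 10 weeks.

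In KO, Nppa rose from 3 to 6 weeks by 1.87 on the log2 scale (SE 0.32, adjusted p = 0.0015), where 2 of the 6 genes were called against 11.6% of all genes. Its further difference from 6 to 10 weeks, 0.46 (SE 0.31, adjusted p = 0.37), was within the spread of the libraries, and their ranges overlapped. In WT the 6-week libraries lay above those of both other ages without overlap, yet neither step was called (0.86, SE 0.31, adjusted p = 0.12, from 3 to 6 weeks, and -0.89, SE 0.31, adjusted p = 0.094, from 6 to 10 weeks). Of all genes, 15.3% rose without overlap from 3 to 6 weeks in WT, and 17.6% fell so from 6 to 10 weeks. None of the 6 genes was called between 3 and 6 weeks in WT by edgeR, against 5.18% of all genes. Nppa and Nppb had an unadjusted p under 0.05 there, and DESeq2 called Nppb (adjusted p = 0.040). The genotype effect itself was larger at 10 than at 3 weeks by 2.35 (SE 0.44, adjusted p = 0.0060), a contrast in which 2 of the 6 genes were called against 5.76% of all genes. Neither neighbouring pair of ages passed this test: the effect differed by 1.01 (SE 0.43, adjusted p = 0.28) between 3 and 6 weeks and by 1.35 (SE 0.43, adjusted p = 0.085) between 6 and 10 weeks. None of the 6 genes was called in the first of these contrasts, against 1.59% of all genes, nor in the second, against 5.75%. At an unadjusted p under 0.05 the first held Nppa and Npr3, and the second held Nppa, Nppb, Npr1 and Npr3. DESeq2 called 0 of 6 in the first and 3 of 6 in the second, namely Nppa, Nppb and Npr3.

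**Figure D2:**
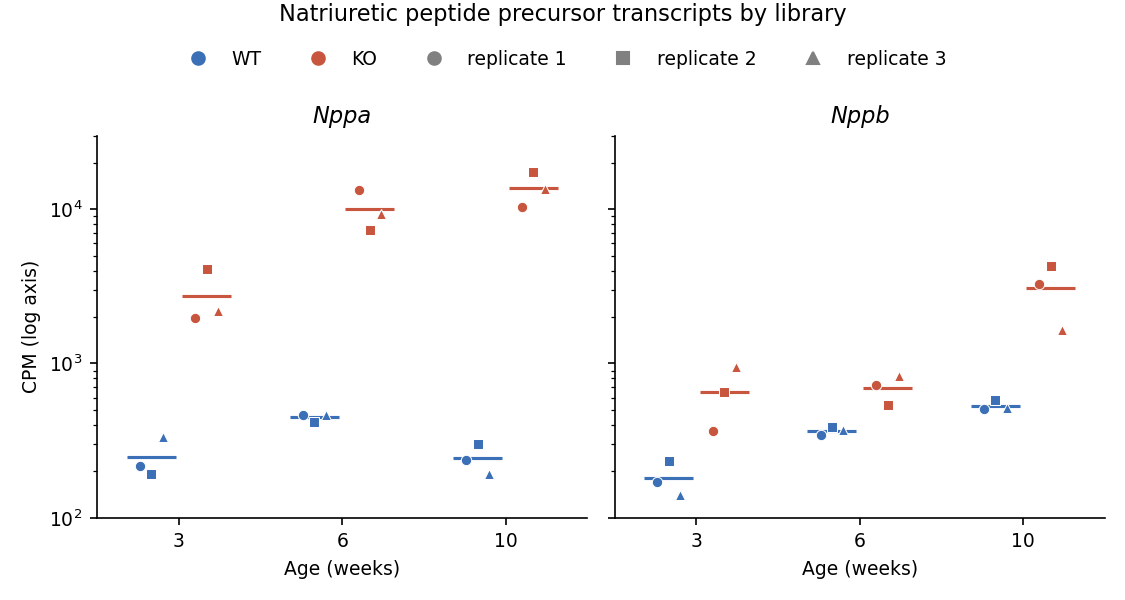
Each point is 1 library: CPM on a log axis against age for Nppa (left) and Nppb (right), with lines at the arithmetic mean of the 3 libraries of a group. All 9 KO libraries lie above all 9 WT libraries for Nppa, while the Nppb levels of WT at 10 weeks (505 to 581 CPM) lie within the range of KO at 3 weeks (365 to 943 CPM).

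Nppb (ENSMUSG00000029019; GRCm38, chromosome 4, 147985788 to 147987205, plus strand) encodes the BNP precursor and lies 13516 bases before Nppa on the same strand. At 3 weeks it stood at 171, 232 and 140 CPM in WT and 365, 653 and 943 CPM in KO. At 6 weeks the values were 342, 388 and 368 CPM in WT and 720, 542 and 833 CPM in KO. At 10 weeks they were 505, 581 and 516 CPM in WT and 3285, 4274 and 1660 CPM in KO. At each age the KO libraries were above the WT libraries of that age without overlap, as was so for 15.7%, 21.9% and 19.2% of all genes at 3, 6 and 10 weeks. The difference was called at 3 weeks (log2 1.85, SE 0.35, adjusted p = 0.0031) and at 10 weeks (2.53, SE 0.36, adjusted p = 0.00014). At 6 weeks, 0.93 (SE 0.35, adjusted p = 0.068) did not pass. It was called at that age in 4 of the 16 alternatives, DESeq2 (adjusted p = 0.030) among them, and in 0 of the 6 fits with 1 library left out.

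Nppb rose with age in WT. From 3 to 10 weeks it rose by 1.56 (SE 0.35, adjusted p = 0.0081), from 181 ± 47.0 to 534 ± 41.4 CPM (SD, n = 3), and the 3 ages did not overlap. Here 3 of the 6 genes were called, Nppb, Corin and Npr1, against 16.5% of all genes. In WT 15.3% of all genes rose without overlap from 3 to 6 weeks, and 16.4% from 6 to 10 weeks. In KO the Nppb levels of 3 and 6 weeks overlapped (0.09, SE 0.34, adjusted p = 0.91). It rose by 2.14 from 6 to 10 weeks (SE 0.36, adjusted p = 0.0019), where 2 of the 6 genes, Nppb and Corin, were called against 12.7% of all genes. The lowest KO library of 10 weeks, at 1660 CPM, was above every other library of the series. The change of the genotype effect between 6 and 10 weeks, 1.59 (SE 0.49, adjusted p = 0.074), did not pass, and without replicate 3 of KO at 10 weeks its adjusted p was 0.012.

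Both precursors lie in 1 locus, and their promoters are printed here because these 2 neighbours had the largest differences averaged over the ages. Each window runs from 250 bases before to 50 bases after the RefSeq start (GRCm38.p6, plus strand), for Nppa chr4:148000472-148000771 and for Nppb chr4:147985650-147985949. Capitals mark, on either strand, the letters GATAA (core of the GATA factor site), AAGTG (core of the Nkx2-5 site), CATTCC (the M-CAT core bound by TEAD factors) and TATAAA (the letters of a TATA box, at any position).
Nppa promoter: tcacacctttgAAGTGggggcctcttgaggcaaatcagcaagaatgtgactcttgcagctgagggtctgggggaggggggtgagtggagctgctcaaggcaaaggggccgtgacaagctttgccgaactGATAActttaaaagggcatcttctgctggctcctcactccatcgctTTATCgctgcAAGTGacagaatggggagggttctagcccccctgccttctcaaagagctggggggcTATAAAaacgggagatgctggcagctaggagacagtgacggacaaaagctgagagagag
Nppb promoter: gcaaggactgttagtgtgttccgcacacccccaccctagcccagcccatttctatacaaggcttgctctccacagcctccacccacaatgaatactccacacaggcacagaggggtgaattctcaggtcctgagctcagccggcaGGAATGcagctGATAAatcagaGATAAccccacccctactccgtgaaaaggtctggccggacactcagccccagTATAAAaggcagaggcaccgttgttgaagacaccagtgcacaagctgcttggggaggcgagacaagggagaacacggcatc
Both windows held 2 copies of GATAA and 1 of TATAAA. The TATAAA began at -9 from the RefSeq start in Nppa and at -31 in Nppb. Of 32851 RefSeq windows of 300 bases, 5.27% held 2 or more copies of GATAA, and 1.25% held these together with TATAAA. Nppa held AAGTG in 2 places, a motif found in 46.4% of windows, and Nppb held CATTCC in 1 place, on the opposite strand, as 14.7% of windows did. TGANTCA, the AP-1 site, and the strict CArG box bound by SRF (CC, 6 letters of A or T, GG) were in neither window. These were held by 7.81% and 1.63% of windows. Only exact letters were searched, and the Nppa window has a near match to the CArG box, ctttaaaagg, with t for the second c. The windows of Corin, Npr1, Npr2 and Npr3 held none of these 6 motifs, as was so for 29.5% of all windows. No motif overlapped another in the windows printed. These are matches of letters, with no binding measured.

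Genes around the pair were called in both directions. Within 100 kb of the locus the tables listed 12 other genes, of which 8 were tested. Plod1, a lysyl hydroxylase of collagen, was higher in KO at 3 weeks (0.47, SE 0.10, adjusted p = 0.0023) and 6 weeks (0.38, SE 0.10, adjusted p = 0.0076). Chchd2-ps, a pseudogene with at most 0.611 CPM on average in any of these groups, was lower at 6 weeks (-1.85, SE 0.56, adjusted p = 0.019). Mfn2, which fuses mitochondrial outer membranes, the chloride transporter gene Clcn6, Agtrap and 2510039O18Rik were not called at any single age.

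Gm13054, annotated as antisense to Nppa, was higher in KO by 4.04, 3.79 and 4.59 at 3, 6 and 10 weeks (SE 0.45, 0.39 and 0.40, adjusted p = 2.52e-05, 5.07e-06 and 8.57e-07). Its exons share 532 of the 865 exon bases of Nppa. Its level was 0.356% to 1.38% of that of Nppa in the same library. The strand setting of the counting was not given in the sources used here, so reads of this transcript and of Nppa cannot be told apart.

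On a per-length scale the balance of the 2 precursors differed between groups. In WT the ratio of Nppa to Nppb RPKM was 1.15, 0.745 and 2.16 at 3 weeks, 1.23, 0.972 and 1.14 at 6 weeks, and 0.421, 0.468 and 0.336 at 10 weeks. In KO it was 4.91, 5.65 and 2.09 at 3 weeks, 16.8, 12.3 and 10.1 at 6 weeks, and 2.83, 3.68 and 7.39 at 10 weeks. By this ratio Nppb was the more abundant precursor in all 3 WT libraries of 10 weeks, and Nppa in all 9 KO libraries. The RPKM of Nppa divides by all its exon bases, and how reads in those shared with Gm13054 were counted is not known. If they were left out, the ratios are too low, and the WT order at 10 weeks depends on this. The KO ratio was highest at 6 weeks without overlap with the other ages, at 13.1 ± 3.37 (SD, n = 3).

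**Figure D3:**
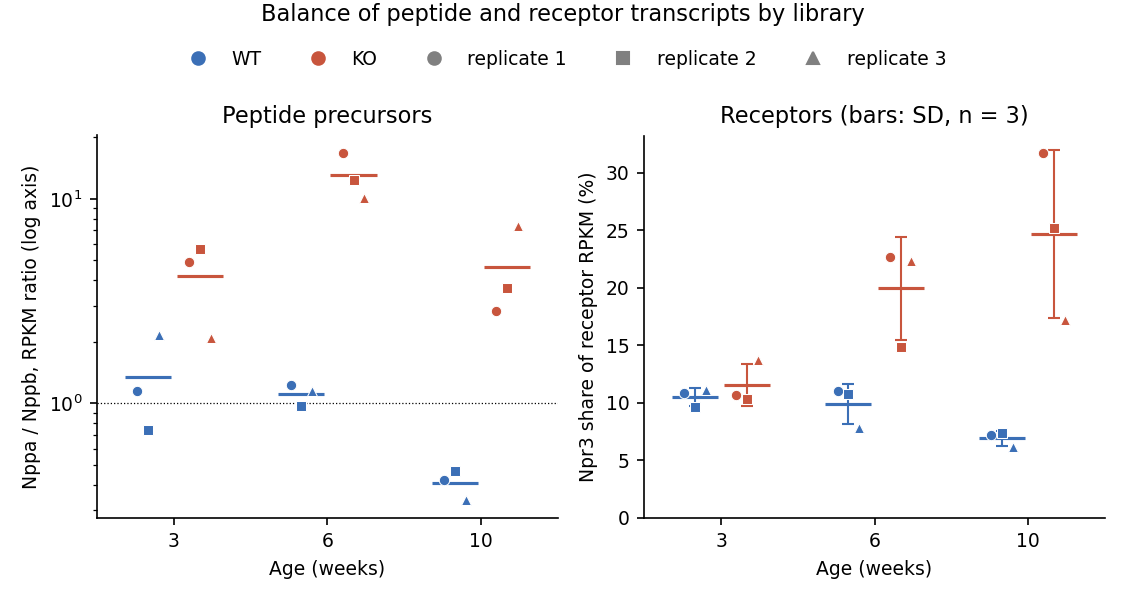
Left, the ratio of Nppa to Nppb RPKM on a log axis, with a dotted line at 1; right, Npr3 as a percentage of the summed RPKM of Npr1, Npr2 and Npr3, with SD bars; points are libraries and horizontal lines are group means. The ratio peaks in KO at 6 weeks (10.1 to 16.8), and the Npr3 share reaches 17.2% to 31.7% in KO at 10 weeks against 6.17% to 7.36% in WT.

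Across the 9 KO libraries, log2 levels of Nppa and Nppb had a Pearson r of 0.64 (exact permutation p = 0.062) and a Spearman rho of 0.72 (exact permutation p = 0.037). Adjusted over the 4 relations computed, these p-values were 0.25 and 0.15, and r was 0.53 without the 2 libraries farthest from the median Nppb level and 0.28 after the mean of each age was subtracted. In the 9 WT libraries r was 0.06 (exact permutation p = 0.87) and rho -0.03 (exact permutation p = 0.95).

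Corin (ENSMUSG00000005220; GRCm38, chromosome 5, 72300025 to 72504473, minus strand), the protease that activates ANP, was called between ages and not between genotypes. In WT it measured 188, 176 and 178 CPM at 3 weeks, 183, 211 and 212 CPM at 6 weeks, and 269, 286 and 241 CPM at 10 weeks. In KO it measured 212, 119 and 157 CPM, then 192, 176 and 166 CPM, then 336, 295 and 271 CPM at the same ages. WT and KO overlapped at every age, and the 10-week libraries of each genotype were above its younger ones. Of all genes, 16.4% in WT and 14.1% in KO rose without overlap from 6 to 10 weeks. From 3 to 10 weeks the shares were 18.3% and 14.0%. Corin rose from 3 to 10 weeks in WT (0.56, SE 0.15, adjusted p = 0.011) and in KO (0.89, SE 0.15, adjusted p = 0.00017), where the step from 6 to 10 weeks alone was 0.76 (SE 0.15, adjusted p = 0.0019). The WT call was lost without replicate 2 of 10 weeks (adjusted p = 0.057). Between genotypes the log2 differences were -0.15 (SE 0.15, adjusted p = 0.53), -0.18 (SE 0.15, adjusted p = 0.41) and 0.18 (SE 0.15, adjusted p = 0.39) at 3, 6 and 10 weeks. The value at 3 weeks rested on single libraries: without KO replicate 1 it was -0.39 (adjusted p = 0.048), and without KO replicate 2 it was 0.03 (adjusted p = 0.91).

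**Figure D4:**
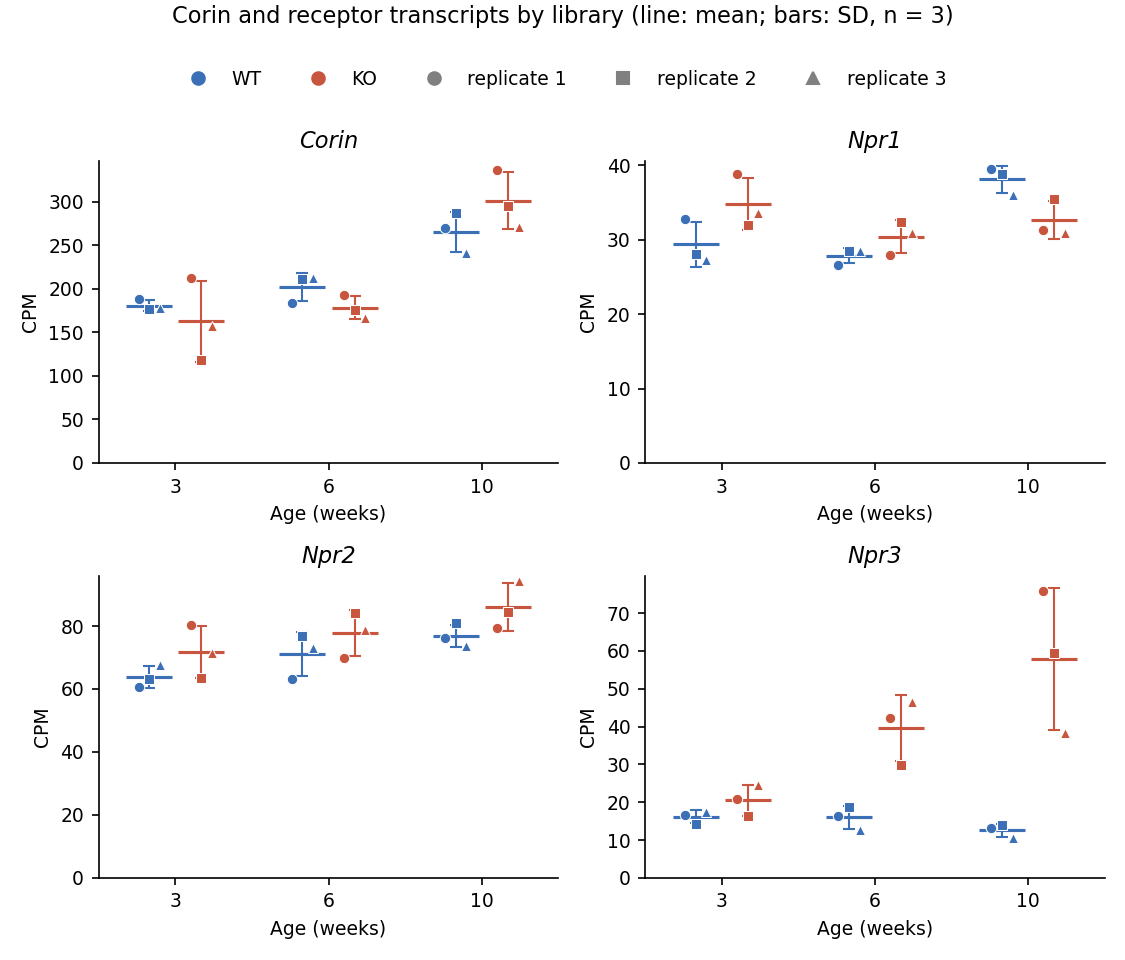
CPM by library against age for Corin, Npr1, Npr2 and Npr3, with the mean and SD of each group of 3 and every y axis from 0. The widest gap between genotypes is that of Npr3, with KO at 29.9 to 46.6 CPM at 6 weeks and 38.3 to 75.8 CPM at 10 weeks against at most 18.8 CPM in WT.

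Npr1 (ENSMUSG00000027931; GRCm38, chromosome 3, 90450591 to 90465866, minus strand), the receptor for ANP and BNP, was not called between genotypes. WT libraries held 32.8, 28.0 and 27.2 CPM at 3 weeks, 26.7, 28.5 and 28.4 CPM at 6 weeks, and 39.5, 38.9 and 36.0 CPM at 10 weeks. KO libraries held 38.8, 32.0 and 33.5 CPM, then 27.9, 32.3 and 31.0 CPM, then 31.4, 35.5 and 30.9 CPM. At 10 weeks the KO libraries lay just below those of WT without overlap, as was so for 21.4% of all genes. The difference of -0.22 (SE 0.11, adjusted p = 0.13) was not called. With library totals left unscaled it was -0.37 and was called (adjusted p = 0.023), under a scaling that put the median of all genes at -0.17 instead of -0.03 on the log2 scale. In WT it rose from 6 to 10 weeks by 0.45 (SE 0.11, adjusted p = 0.012), the 1 gene of 6 called there against 8.77% of all genes. That call was lost without replicate 1 of WT at 6 weeks (adjusted p = 0.063) or at 10 weeks (adjusted p = 0.054). From 3 to 10 weeks in WT it rose by 0.38 (SE 0.11, adjusted p = 0.021), a call lost with unscaled totals (adjusted p = 0.12), with no filter on low counts (adjusted p = 0.063) and when replicate 2 or 3 of 3 weeks or replicate 1 or 2 of 10 weeks was left out (adjusted p = 0.066 to 0.082). The genotype effect at 10 against 3 weeks was -0.47 (SE 0.15, adjusted p = 0.075).

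Npr2 (ENSMUSG00000028469; GRCm38, chromosome 4, 43631935 to 43651244, plus strand), the receptor for C-type natriuretic peptide, was not called in any of the 13 contrasts. It averaged 63.8 ± 3.48, 71.0 ± 6.97 and 76.9 ± 3.58 CPM (SD, n = 3) in WT at 3, 6 and 10 weeks and 71.7 ± 8.33, 77.7 ± 7.27 and 86.0 ± 7.62 CPM in KO. The genotypes overlapped at every age. Its difference averaged over the ages, 0.15 (SE 0.06, adjusted p = 0.055), was not called, while 3 of the 6 genes and 41.5% of all genes were. It was called in 8 of 27 alternatives, DESeq2 (adjusted p = 0.032) and 5 of the 18 fits with 1 library left out among them. Its ligand gene Nppc had 10 counts over all 18 libraries and was not tested.

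Npr3 (ENSMUSG00000022206; GRCm38, chromosome 15, 11839896 to 11905674, minus strand), the clearance receptor, was the 1 receptor gene called between genotypes. At 3 weeks it stood at 16.7, 14.3 and 17.5 CPM in WT and 20.9, 16.2 and 24.5 CPM in KO, with overlap (0.35, SE 0.23, adjusted p = 0.34). At 6 weeks it stood at 16.4, 18.8 and 12.8 CPM in WT and 42.3, 29.9 and 46.6 CPM in KO. At 10 weeks it stood at 13.2, 14.0 and 10.6 CPM in WT and 75.8, 59.5 and 38.3 CPM in KO. At 6 and 10 weeks every KO library was above every WT library, as was so for 21.9% and 19.2% of all genes. The log2 difference was 1.31 at 6 weeks (SE 0.23, adjusted p = 0.00037) and 2.20 at 10 weeks (SE 0.23, adjusted p = 1.73e-06). Both calls held in all 16 alternatives, with 1.18 and 1.98 without the 3 libraries rich in Myl4.

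The Npr3 difference grew with age. The genotype effect was larger at 10 than at 3 weeks by 1.85 (SE 0.32, adjusted p = 0.0023), whereas its steps of 0.96 (SE 0.32, adjusted p = 0.15) between 3 and 6 weeks and 0.89 (SE 0.32, adjusted p = 0.11) between 6 and 10 weeks were not called. In KO it rose from 3 to 6 weeks by 0.94 (SE 0.22, adjusted p = 0.010) and over 3 to 10 weeks by 1.49 (SE 0.23, adjusted p = 0.00015), the last a contrast with 4 of the 6 genes and 20.1% of all genes called. The call from 3 to 6 weeks was lost without replicate 3 of KO at 6 weeks (adjusted p = 0.050). In WT the change from 3 to 10 weeks was -0.36 (SE 0.23, adjusted p = 0.33).

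Per length, Npr2 was the most abundant of the 3 receptor transcripts in all 18 libraries, at 13.0 to 20.2 RPKM. Genes annotated as antisense overlap Npr2 (Gm12473) and Npr1 (Gm16048), with 1908 and 119 counts over all 18 libraries. Their effect on the per-length levels was not tested. Npr3 made up 10.5% ± 0.80, 9.90% ± 1.78 and 6.91% ± 0.64 (SD, n = 3) of the summed receptor RPKM in WT at 3, 6 and 10 weeks. In KO its share was 11.6% ± 1.85, 19.96% ± 4.45 and 24.7% ± 7.27. In KO at 6 weeks Npr3 was above Npr1 in replicates 1 and 3 (6.11 against 5.84 RPKM and 6.72 against 6.47 RPKM) but not in replicate 2 (4.32 against 6.76 RPKM). In KO at 10 weeks Npr3 was above Npr1 in replicates 1 and 2 (10.9 against 6.56 RPKM and 8.59 against 7.43 RPKM) but not in replicate 3 (5.54 against 6.47 RPKM). In WT Npr1 was above Npr3 in each of the 9 libraries. The ratio of Npr1 to Npr2 stayed between 0.320 and 0.528 throughout.

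In bulk tissue a change in the number of cells of a type and a change in RNA per cell cannot be told apart. Npr3 is known from endocardial cells, so endocardial markers were read beside it. In WT their summed level was 142 to 193 CPM at 3 weeks, 146 to 177 CPM at 6 weeks and 130 to 188 CPM at 10 weeks. In KO it was 189 to 215 CPM at 3 weeks, 166 to 249 CPM at 6 weeks and 188 to 322 CPM at 10 weeks. The libraries rich in Myl4, which also held the most Npr3, were the highest of each KO group, and the other KO libraries held 166 and 174 CPM at 6 weeks and 188 and 190 CPM at 10 weeks. Of 7 markers 6 were tested, and 1, 1 and 3 were called higher in KO at 3, 6 and 10 weeks, with none lower. Of all genes, 8.65%, 11.0% and 14.6% were called higher and 6.68%, 12.8% and 14.7% lower at these ages. Tmem100 was called at all 3 ages (2.77, 1.33 and 0.95), and Plvap (1.38) and Vwf (0.83) at 10 weeks, while the log2 differences of Cytl1 were below 0 at each age (-0.62, -0.99 and -0.15) and it was called lower averaged over the ages (-0.59, SE 0.21, adjusted p = 0.036). Hapln1 was at or near 0 in every library. The summed level of 8 general endothelial markers was 890 to 1130 CPM in KO at 6 weeks against 1427 to 1516 CPM in WT, while the genotypes overlapped at 3 weeks (1162 to 1472 against 1319 to 1461 CPM) and 10 weeks (1147 to 1371 against 1332 to 1483 CPM). Of these 8 markers, 0, 3 and 3 were called lower in KO at 3, 6 and 10 weeks, and none higher. Their median log2 differences were -0.12, -0.28 and -0.36. The part of either in the Npr3 result was not tested.

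Atrial tissue is rich in Nppa, so atrial markers were read beside it. The 10 markers summed to 65.9 to 142 CPM in the WT libraries. In KO they summed to 49.9 to 379 CPM at 3 weeks, 84.3 to 1139 CPM at 6 weeks and 88.3 to 3071 CPM at 10 weeks, the top of each range being the library rich in Myl4. Of 8 markers tested, 1, 1 and 2 were called higher in KO at 3, 6 and 10 weeks, against 8.65%, 11.0% and 14.6% of all genes. Bmp10 was at 0 in all 9 KO libraries. In none of the 3 groups was the library rich in Myl4 the highest in Nppa. It was the highest in Npr3 in all 3 KO groups (24.5, 46.6 and 75.8 CPM), in Nppb at 3 and 6 weeks (943 and 833 CPM) and in Corin at 10 weeks (336 CPM). Without these libraries the Nppb difference was 1.48, 0.79 and 2.5 at 3, 6 and 10 weeks (adjusted p = 0.020, 0.16 and 0.00044). For Nppa, at 10 weeks it was the lowest of the 3, at 10308 CPM with 1145 CPM of Myl4, and the KO library with 3.99 CPM of Myl4 had the highest Nppa of the series, 17428 CPM. Across the 9 KO libraries, log2 Nppa against log2 Myl4 gave r 0.09 (exact permutation p = 0.80, 0.87 adjusted over the 4 relations) and rho 0.15 (exact permutation p = 0.71). Across the 9 WT libraries, r was 0.20 (exact permutation p = 0.58) and rho 0.07 (exact permutation p = 0.88). After the mean of each age was subtracted, r was 0.73 in WT (exact permutation p = 0.14). It was -0.35 in KO (exact permutation p = 0.38). The part of atrial tissue in the results for Nppa and the other 5 of the 6 genes was not tested.

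**Figure D5:**
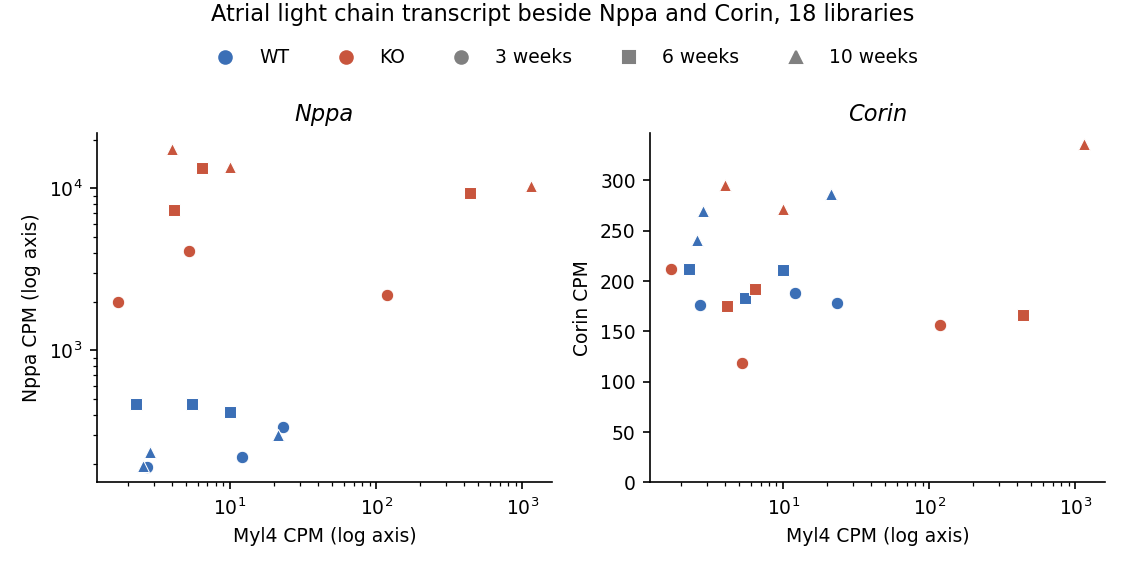
CPM of Nppa (left, log axis) and Corin (right, axis from 0) against CPM of the atrial light chain transcript Myl4 (log axis), 1 point per library, coloured by genotype and shaped by age. The 3 KO libraries at 118, 436 and 1145 CPM of Myl4 have Nppa levels of 2184, 9359 and 10308 CPM, none the highest of its group.

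Ordered by group mean, Nppa ran from WT at 10 weeks through WT at 3 and 6 weeks to KO at 3, 6 and 10 weeks. Its neighbours in this order overlapped at 2 places, between WT at 10 and 3 weeks and between KO at 6 and 10 weeks. Nppb ran from WT at 3, 6 and 10 weeks to KO at 3, 6 and 10 weeks, with overlap of WT at 10 weeks, KO at 3 weeks and KO at 6 weeks in turn. For Npr3 the order was WT at 10, 6 and 3 weeks, then KO at 3, 6 and 10 weeks, and only the step between KO at 3 and 6 weeks was free of overlap. For Corin the step between WT at 6 and 10 weeks was the 1 free of overlap, and for Npr1 and Npr2 all neighbouring groups overlapped.

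The genes whose log2 CPM profile over the 18 libraries was most like that of a member were taken from the 12084 genes averaging 2 CPM or more. This likeness is a description over libraries that share genotype and age. Nppa was closest to Acta1, the skeletal alpha-actin gene (r 0.99), Shisa3 (r 0.99) and P3h2, a collagen prolyl hydroxylase (r 0.98). Acta1 averaged 372, 576 and 461 CPM in WT and 4243, 9385 and 14144 CPM in KO at 3, 6 and 10 weeks. With group means subtracted, Nppa and Acta1 still had an r of 0.74. Nppb had other partners: Dnaja4, a co-chaperone gene (r 0.96), Tom1l2 (r 0.96) and Ppp1r15a, a regulatory subunit of a phosphatase of the stress response (r 0.95). Dnaja4 went from 137 to 357 CPM in KO between 6 and 10 weeks, and its r with Nppb was 0.92 in the WT and 0.98 in the KO libraries.

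Npr3 was closest to Tspyl5 (r 0.97), Pam (r 0.95) and Lbp (r 0.94). Pam, which amidates secreted peptides and is abundant in atrial granules, averaged 982, 1633 and 2597 CPM in KO at 3, 6 and 10 weeks against 547, 566 and 589 CPM in WT. Within WT its r with Npr3 was -0.17. The profiles nearest to Corin, Npr1 and Npr2 had r of 0.89 (Saraf), 0.85 (Patl1) and 0.93 (Tmem8b). Between the members, r over 18 libraries was 0.89 for Nppa with Npr3 and 0.77 for Nppb with Npr3. With group means subtracted these were -0.04 and 0.48.

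Around the 6 genes, the other ligands and the enzymes that process or clear the peptides included calls in both directions. Of 7 tested, 1, 0 and 2 were called higher in KO and 2, 2 and 2 lower at 3, 6 and 10 weeks, with median log2 differences of -0.16, 0.01 and 0.13. Of all genes, 8.65%, 11.0% and 14.6% were called higher and 6.68%, 12.8% and 14.7% lower at these ages, and the counts of the lists below are set against the same shares. Furin, a proprotein convertase that cuts the BNP precursor, was higher at 3 weeks (0.72, SE 0.15, adjusted p = 0.0022) and 10 weeks (0.60, SE 0.15, adjusted p = 0.0041). At 6 weeks its difference was 0.01 (SE 0.15, adjusted p = 0.96). Dpp4, a peptidase that trims BNP, was higher at 10 weeks (1.01, SE 0.34, adjusted p = 0.027), with overlap, and this call held in 3 of the 6 fits with 1 library left out and was lost without the libraries rich in Myl4 (adjusted p = 0.17). Pcsk6, the convertase that activates corin, was lower at each age, most at 10 weeks (-0.72, SE 0.16, adjusted p = 0.0018). Mme, the gene of neprilysin, which degrades the peptides, was lower in KO, going from 14.2 ± 3.03 CPM in WT to 3.92 ± 1.56 CPM (SD, n = 3) in KO at 10 weeks (-1.87, SE 0.25, adjusted p = 6.83e-06). With each of the 6 libraries of an age left out in turn, the call of Mme held in 3 of 6 fits at 3 weeks and 5 of 6 at 6 weeks, and that of Pcsk6 in 3 of 6 and 1 of 6. Both were lost without WT replicate 2 or KO replicate 2 at 3 weeks and without WT replicate 1 at 6 weeks.

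Genes of cyclic GMP signalling were called in both directions. Of 17 tested, 2, 3 and 2 were higher in KO and 4, 2 and 6 lower at 3, 6 and 10 weeks, with median differences of -0.23, -0.14 and -0.18. Prkg1, the cyclic GMP-dependent kinase, was higher at all 3 ages, by 0.87 (SE 0.24, adjusted p = 0.019), 1.07 (SE 0.24, adjusted p = 0.0026) and 2.05 (SE 0.26, adjusted p = 4.09e-06). At 3 weeks that call was lost without WT replicate 1 (adjusted p = 0.12) or KO replicate 2 (adjusted p = 0.095). Pde1c, a phosphodiesterase that breaks down cyclic nucleotides, was lower by 1.01, 1.68 and 1.39 on the log2 scale (SE 0.19 at each age, adjusted p = 0.00096, 2.76e-06 and 2.36e-05). Pde9a, specific for cyclic GMP, was higher at 10 weeks (0.99, SE 0.22, adjusted p = 0.0018). Rgs2, a regulator of G protein signalling that the kinase acts on, was lower at that age (-1.11, SE 0.20, adjusted p = 0.00032), and Rgs4 of the same family at each age (-0.53, -0.55 and -1.20). Vasp, a substrate of the kinase, was higher at 3 and 6 weeks (0.70 and 0.50), and Abcc5, an exporter of cyclic nucleotides, at 6 weeks (0.35). Pln, which restrains the calcium pump, was lower at 3 weeks (-0.53), the guanylyl cyclase subunit gene Gucy1b1 at 3 and 10 weeks (-0.43 and -0.45), and Abcc4, another exporter, at 10 weeks (-0.83). The calls of Rgs4 at 3 and 6 weeks, Abcc5 at 6 weeks and Gucy1b1 at 3 weeks each held in at most 2 of the 6 fits with 1 library left out. With 1 library left out, 1 to 2, 2 to 3 and 2 to 3 were called higher and 2 to 5, 1 to 3 and 4 to 7 lower at these ages, and the lowest counts were shared by more than 1 of these fits, among them those without WT replicate 1 at each age, KO replicate 2 at 3 and 6 weeks and KO replicate 3, for the lower count, at 10 weeks.

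Among 26 regulators known to act on the Nppa or Nppb genes, 5, 6 and 6 were called higher and 0, 2 and 3 lower in KO at 3, 6 and 10 weeks, with medians of 0.22, 0.20 and -0.02. Tbx20, a T-box factor, was higher at each age (0.66, 0.88 and 0.97), and so was Tead1, which binds the M-CAT motif (0.45 at 3 weeks, and 0.53 and 0.67 at 6 and 10 weeks, SE 0.11 each, adjusted p = 0.0011 and 9.4e-05). Srf (0.58) and its partner Myocd (0.70) were higher at 3 weeks, as was the transcriptional activator Camta2 (0.61), and Myocd again at 10 weeks (0.47). Gata4, which binds the GATA motif, was higher at 6 weeks (0.47, SE 0.14, adjusted p = 0.014) and not called at 3 (0.32, SE 0.14, adjusted p = 0.11) or 10 weeks (-0.19, SE 0.14, adjusted p = 0.31). Nkx2-5 was not called at any age. At 6 weeks Mef2c (0.81) and Nfatc4 (0.69) were higher and Hand2 (-0.66) and Jun (-0.68) lower, while Hand2 was higher at 10 weeks (0.42). Atf3, a stress-induced factor, was higher at 10 weeks (3.32, SE 1.0, adjusted p = 0.025) with overlap, at 103 ± 84.4 against 10.3 ± 3.45 CPM (SD, n = 3). The calls of Nfatc4 and Jun held in 2 of the 6 fits with 1 library left out, and that of Atf3 in 1 of 6. Fos was called averaged over the ages (-1.26, SE 0.43, adjusted p = 0.032) and at no single age. Rcan1, a target and inhibitor of calcineurin, went from 141 ± 20.6 CPM in WT to 873 ± 588 CPM (SD, n = 3) in KO at 10 weeks (2.63, SE 0.46, adjusted p = 0.00088). Jarid2, a repressor of Nppa, was lower at that age (-0.95, SE 0.14, adjusted p = 3.46e-05), and so were Mef2a (-0.80, SE 0.17, adjusted p = 0.00098) and Hdac9 (-0.60, SE 0.18, adjusted p = 0.014), the last in 3 of the 6 fits with 1 library left out. At 10 weeks the counts moved with the setting: 4 higher and 7 lower with unscaled library totals, 4 and 4 without the libraries rich in Myl4, and 3 and 2 without WT replicate 1. With 1 library left out, 4 to 8 were higher at 3 weeks and 3 to 6 at 6 weeks, the lowest being again without WT replicate 1.

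Other stress and foetal genes of heart muscle were mostly called higher in KO. This list was chosen with the increases of several of its genes in these libraries known, so its direction is no independent evidence. Of 12 tested, 8, 8 and 9 were higher in KO and 0, 1 and 1 lower at 3, 6 and 10 weeks, with medians of 2.5, 2.32 and 3.47. Without WT replicate 1, 5 were called higher at 3 weeks, and at most 2 were lower in any fit with 1 library left out. At 10 weeks Acta1 was higher by 4.94 (SE 0.32, adjusted p = 2.46e-08), Ankrd1, a stretch-responsive ankyrin repeat protein, by 4.05 (SE 0.50, adjusted p = 4.62e-05) and Ccn2, a matricellular growth factor, by 4.84 (SE 0.80, adjusted p = 0.00058). Atp2a2, the calcium pump of the sarcoplasmic reticulum, was lower at 6 weeks (-0.63, SE 0.12, adjusted p = 0.00052) and 10 weeks (-0.41, SE 0.12, adjusted p = 0.012). Ankrd2, a relative of Ankrd1, averaged 0.272 CPM in WT and 61.8 CPM in KO at 10 weeks (7.80, SE 1.89, adjusted p = 0.0079), and its calls at 3 and 6 weeks held in 2 and 4 of the 6 fits with 1 library left out. Xirp2, an actin-binding protein of the intercalated disc, was higher by 3.18, 4.36 and 3.96, and the endothelin gene Edn3 by 4.30, 2.91 and 2.98. The 10-week call of Atp2a2 was lost without WT replicate 3 or KO replicate 2.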

How the data were processed

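RNA libraries of the left ventricle mid wall, 18 in 6 groups of 3, were analysed from the values the authors deposited, namely unnormalized counts for each Ensembl gene. According to the submitters' processing notes the tools included STAR 2.5.2b, Trimmomatic 0.36 and featureCounts of Subread 1.5.2, and the build was GRCm38. How strand and multimapping reads were handled, and which annotation release was used, is not given in the sources used here. Of the identifiers, 49056 matched GENCODE M21 and 259 did not. Libraries held 14980968 to 23001047 counts, which limits the precision of low genes such as Nppc.

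With edgeR 4.0.16 in R 4.3.3, genes were kept by filterByExpr (minimum count 10, minimum total 15), TMM scaled the library sizes, and a robust quasi-likelihood model of 6 group means took in all 18 libraries. There were 13 contrasts, and p-values were adjusted by Benjamini-Hochberg over all genes of a contrast. The fit was tested on simulated data, where genes of low counts were missed most often. The first pass limit of this test was met in few of its random draws, so the draws were pooled and the limits reset after that was seen. CPM used TMM-scaled sizes, RPKM divided CPM by exon length, and log2 CPM took a prior count of 2. Contrasts that share libraries are not independent: the average over the ages uses the same libraries as the 3 single ages. Alternatives used other scalings and filters, DESeq2 1.42.0, limma 3.58.1 (voom), the groups of a contrast alone, a replicate block, and left-out libraries.

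The 6 genes were always named. Of a list, up to 4 called genes per direction and contrast with the largest differences and at least 2 CPM were named, and Gata4, Cytl1, Nkx2-5, Tmem100, Plvap, Vwf and the list values not called were chosen after they were seen. The members and lists were chosen with earlier results of these data known. Marker lists of conduction system, fibroblasts, smooth muscle, macrophages, skeletal muscle and red cells were also summed. Promoter sequences are from RefSeq (GRCm38.p6), which held windows for 6 of 6 members. Its start of Nppb lies inside the deposited gene model. Results for 1 gene are not reported here.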

Additional observations from a re-analysis of the deposited data

Results flagged for a closer look

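The genotype effect on Nppa differed between ages by a test of the difference itself: it was 2.35 larger on the log2 scale at 10 than at 3 weeks (SE 0.44, adjusted p = 0.0060, edgeR), and the 3 KO libraries were higher than the 3 WT libraries at both ages. Npr3 was singled out in the same way, with an effect 1.85 larger at 10 than at 3 weeks (SE 0.32, adjusted p = 0.0023, edgeR), where the libraries overlapped at 3 weeks and were apart at 10. Over the 22 alternatives of this contrast, the adjusted p ran up to 0.020 for Nppa and 0.0092 for Npr3. Groups of 3 libraries were too small for a check of single outlying samples.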

How the results depend on the processing

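Between KO and WT the number of the 6 genes called stayed within 1.5 times the stated one at every age and averaged over the ages, in all alternatives run. The same held for the genotype effect at 10 against 3 weeks and for KO at 10 against 3 weeks, and the other contrasts moved past that limit as follows. With no filter on low counts, 3 of 6 were called in the genotype effect at 6 against 3 weeks and 3 at 10 against 6 weeks, 2 in WT at 6 against 3 weeks, 4 in WT at 10 against 6 weeks and 4 in KO at 10 against 6 weeks. In the first of these, that fit gave Nppa, Nppb and Npr3 adjusted p of 3.8e-07, 8.3e-06 and 0.0006 (edgeR). The main fit gave 0.28, 0.40 and 0.15. So wide a gap came with the filter alone, so these unfiltered calls are given no weight. The unfiltered fit is counted among the alternatives wherever their number is given. For the genotype effect at 10 against 6 weeks, the count was 1 with unscaled library totals, 3 with DESeq2 and 2 with only the groups of the contrast. For WT at 6 against 3 weeks it was 1 with DESeq2 and 2 with only the groups of the contrast, which gave 4 for WT at 10 against 6 weeks. Leaving out 1 library gave 0 to 2 for the genotype effect at 10 against 6 weeks, 0 to 1 for WT at 10 against 6 weeks, 1 to 3 for WT at 10 against 3 weeks and 1 to 2 for KO at 6 against 3 weeks. The cause was not tested.

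Without KO replicate 2 of 3 weeks, Corin turned to 0.032 at 3 weeks and to 0.0096 averaged over the ages, the highest of ranges that began at -0.39 and -0.13 without KO replicate 1 of 3 weeks. Nppa in WT at 10 against 3 weeks turned to 0.25 without WT replicate 3 of 3 weeks and to 0.12 without WT replicate 3 of 10 weeks, and Nppb in KO at 6 against 3 weeks to -0.19 without KO replicate 1 of 3 weeks and to -0.05 without KO replicate 3 of 6 weeks. Leaving out 1 library gave -0.22 to 0.25 for the first and -0.19 to 0.45 for the second. None of these reversed values was called. The r of Nppa with Nppb in WT turned to -0.054 without the 2 farthest libraries and to -0.56 after the mean of each age was subtracted (exact permutation p = 0.93 and 0.42), and that of Nppa with Myl4 in KO to -0.24 and -0.35 (exact permutation p = 0.69 and 0.38).

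With unscaled library totals, the share of called genes that were higher in KO went from 46.1% to 58.5% at 6 weeks and from 49.9% to 32.6% at 10 weeks. Same-numbered libraries of different groups did not deviate together: their deviations correlated at -0.22 to 0.11 (median 0.01, 2 of 45 pairs above 0.1), and 4 of 18 libraries correlated best with their own number, so numbers were not taken as pairs. The fit with a replicate block gave 2, 2 and 3 called genes at 3, 6 and 10 weeks and changed no call of the 6 genes. Of 108 alternative levels and ratios, 23 moved by more than 1 SD, with none of them for a KO level of Nppa, Nppb or Npr3. Depth limited Nppc, with 10 counts in all, more than any of the 6 genes.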

Other observations

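Markers of other cells of the ventricle also differed between the groups. Summed smooth muscle and pericyte markers were 1614 to 1716 CPM in WT and 1015 to 1229 CPM in KO at 3 weeks, and 1213 to 1587 CPM in WT and 617 to 783 CPM in KO at 10 weeks. Of 8 markers tested, 4 were lower and 2 higher at 10 weeks, with smooth muscle actin, Acta2, lower by 2.39 on the log2 scale (SE 0.24) and calponin, Cnn1, higher by 5.23 (SE 1.41). Fibroblast markers summed to 1929 to 2114 CPM in WT and 2507 to 2963 CPM in KO at 6 weeks, where 6 of 9 were higher, among them Col1a1 and Col1a2, and Dpt was lower. At 3 weeks the sums overlapped (1949 to 2318 CPM in WT and 2072 to 2251 CPM in KO), with 2 higher and 3 lower. At 10 weeks they were 1782 to 2003 CPM in WT and 2142 to 2437 CPM in KO, with 3 higher and 1 lower. Macrophage markers summed to 222 to 260 CPM in WT and 170 to 207 CPM in KO at 10 weeks, with Csf1r, Mrc1 and Lyz2 lower. Of the conduction system markers, Hcn4 was lower at all 3 ages and Cntn2 at 6 and 10 weeks. Of the skeletal muscle markers only Ckm, which heart muscle also expresses, and Tnnt3 were high enough to test, and Ckm was lower in KO at 6 weeks by 1.21 on the log2 scale (SE 0.12) and at 10 weeks by 0.62 (SE 0.12). Red cell transcripts summed to 499 to 3914 CPM over the WT and 534 to 2098 CPM over the KO libraries. The part of any of these in the results for the 6 genes was not tested.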
